A study of Mus musculus with 8 samples.

Results

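The glycolysis and hypoxia genes are 32 genes that encode glucose transporters, the enzymes that turn glucose into pyruvate and lactate, oxygen sensors and targets of the hypoxia response. The rule goes by gene name only, on a list drawn up with earlier results of these data known, and the array carried 51 probes for them out of 39429 probes, or 32 of 32530 named or unnamed genes. R1 cells, a pluripotent mouse embryonic stem cell line, had been transfected with 1 of 2 siRNAs against CnAβ1 (siRNA 1, 3 arrays, and siRNA 2, 2 arrays) or with a Control siRNA (3 arrays). All cells were grown as embryoid bodies, aggregates in which differentiation begins, for 48 h. Their total RNA, collected at 48 h from transfection, was read on Agilent arrays with 1 dye. CnAβ1 is made by alternative splicing of Ppp3cb, the gene of a catalytic subunit of the phosphatase calcineurin. The siRNAs were used in 1 cell line, and the labels do not say that replicates came from separate cultures, so a p-value here reflects the variation among these arrays, part or all of which may be technical.

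Glycolysis splits glucose into pyruvate with a small yield of ATP, and lactate dehydrogenase regenerates the NAD+ that it needs. Pluripotent stem cells are known for a high rate of glycolysis. When oxygen is low, the prolyl hydroxylases (the Egln proteins) no longer mark the HIF alpha subunits for degradation, and HIF then binds hypoxia response elements near glycolytic genes, Vegfa, Car9 and Egln3 itself.

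The core of that element was looked up in RefSeq promoter windows (GRCm38.p6) of 250 bases before each annotated start, because several members are textbook HIF targets. The letters searched were ACGTG and GCGTG on both strands, shown in capitals, and CACGTG holds ACGTG on each strand. At least 1 match was present for 27 of the 30 members with a window (90.0%) and for 41.5% of all 27025 genes with one. A gene with several windows has more places for a match. Counted by window, 79.1% of the members' 43 windows and 38.6% of all 32851 held one. Median GC content, taking the highest window of each gene, was 62.8% for the members and 52.8% for all genes, and its part in the difference was not tested. Ndrg1 and Slc2a3 are named only. The windows shown are examples, those of Egln3, Car9 and Ldha, HIF targets whose siRNA arrays all lay above Control, and of Vegfa, one whose siRNA arrays all lay below it. Aldoa, Eno1 and Pgam1 also lay above Control, and their windows are not printed. These held 0 or 1 match for each Aldoa start, 1 or 2 for each Eno1 start and 3 for Pgam1. Vegfa and Ldha have 2 annotated starts each. A match describes these letters only.

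Egln3 (chr12:54203875-54204124, minus strand): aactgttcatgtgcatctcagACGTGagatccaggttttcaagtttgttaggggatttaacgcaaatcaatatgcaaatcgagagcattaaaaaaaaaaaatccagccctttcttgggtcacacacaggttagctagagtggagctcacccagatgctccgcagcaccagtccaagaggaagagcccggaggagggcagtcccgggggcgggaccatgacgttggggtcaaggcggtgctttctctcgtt

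Car9 (chr4:43506776-43507025, plus strand): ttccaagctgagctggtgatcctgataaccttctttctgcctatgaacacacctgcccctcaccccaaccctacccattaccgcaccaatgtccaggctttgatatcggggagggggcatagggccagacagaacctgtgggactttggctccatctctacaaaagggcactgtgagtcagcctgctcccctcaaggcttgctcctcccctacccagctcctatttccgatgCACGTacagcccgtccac

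Vegfa, first start (chr17:46032378-46032627, minus strand): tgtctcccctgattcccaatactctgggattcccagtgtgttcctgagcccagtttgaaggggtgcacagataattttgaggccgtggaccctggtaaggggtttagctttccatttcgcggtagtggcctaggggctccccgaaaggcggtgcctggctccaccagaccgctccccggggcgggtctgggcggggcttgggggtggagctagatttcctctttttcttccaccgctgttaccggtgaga

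Vegfa, second start (chr17:46025164-46025413, minus strand): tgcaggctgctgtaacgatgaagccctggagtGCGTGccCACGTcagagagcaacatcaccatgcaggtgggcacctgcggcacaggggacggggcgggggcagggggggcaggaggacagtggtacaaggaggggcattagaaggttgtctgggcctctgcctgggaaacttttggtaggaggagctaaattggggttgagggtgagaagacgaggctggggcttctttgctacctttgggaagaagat

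Ldha, first start (chr7:46845554-46845803, plus strand): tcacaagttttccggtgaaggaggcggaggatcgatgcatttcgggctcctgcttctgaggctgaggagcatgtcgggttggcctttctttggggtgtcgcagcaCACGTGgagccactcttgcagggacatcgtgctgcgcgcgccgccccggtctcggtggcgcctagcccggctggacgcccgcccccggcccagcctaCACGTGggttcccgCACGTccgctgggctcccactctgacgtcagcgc

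The Egln3 and Car9 windows held 1 match each and the first Ldha window 5, with 2 copies of CACGTG, each counted on both strands. The second Ldha window, not printed, held 1. The first Vegfa window held 0 and the second 2. By its coordinates on the minus strand, the second Vegfa start lies downstream of the first. Its window is therefore inside the gene and not before the first start. Vegfa counts as a gene with a match through that window only.

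Values below are log2 processed signals relative to the 75th percentile of the array, and differences are on the same log2 scale. All 32 members were read by a probe well above background on all 8 arrays. Of 22423 genes tested, limma called 0 (0%) at an adjusted p under 0.05 in each siRNA comparison, and 0 of the 32 members were called. At an unadjusted p under 0.05 there were 804 genes (3.59%) when the siRNAs were averaged, 785 (3.5%) for siRNA 1, 751 (3.35%) for siRNA 2 and 754 (3.36%) for siRNA 2 against siRNA 1. The members numbered 2, 2, 2 and 1 in those comparisons. The 3 comparisons with Control share the Control arrays. Of the members, 21 of 32 stood above 0 for the mean of both siRNAs, with a median of 0.07, beside 52.9% and a median of 0.01 for all genes. For siRNA 1 the members' median was 0.08 (all genes 0.02) and for siRNA 2 it was 0.09 (all genes -0.00086). The confidence interval of the mean difference lay within 1 log2 unit of 0 for 31 of 32 members, with a median distance of 0.26 from the difference to either bound.

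**Figure D1:**
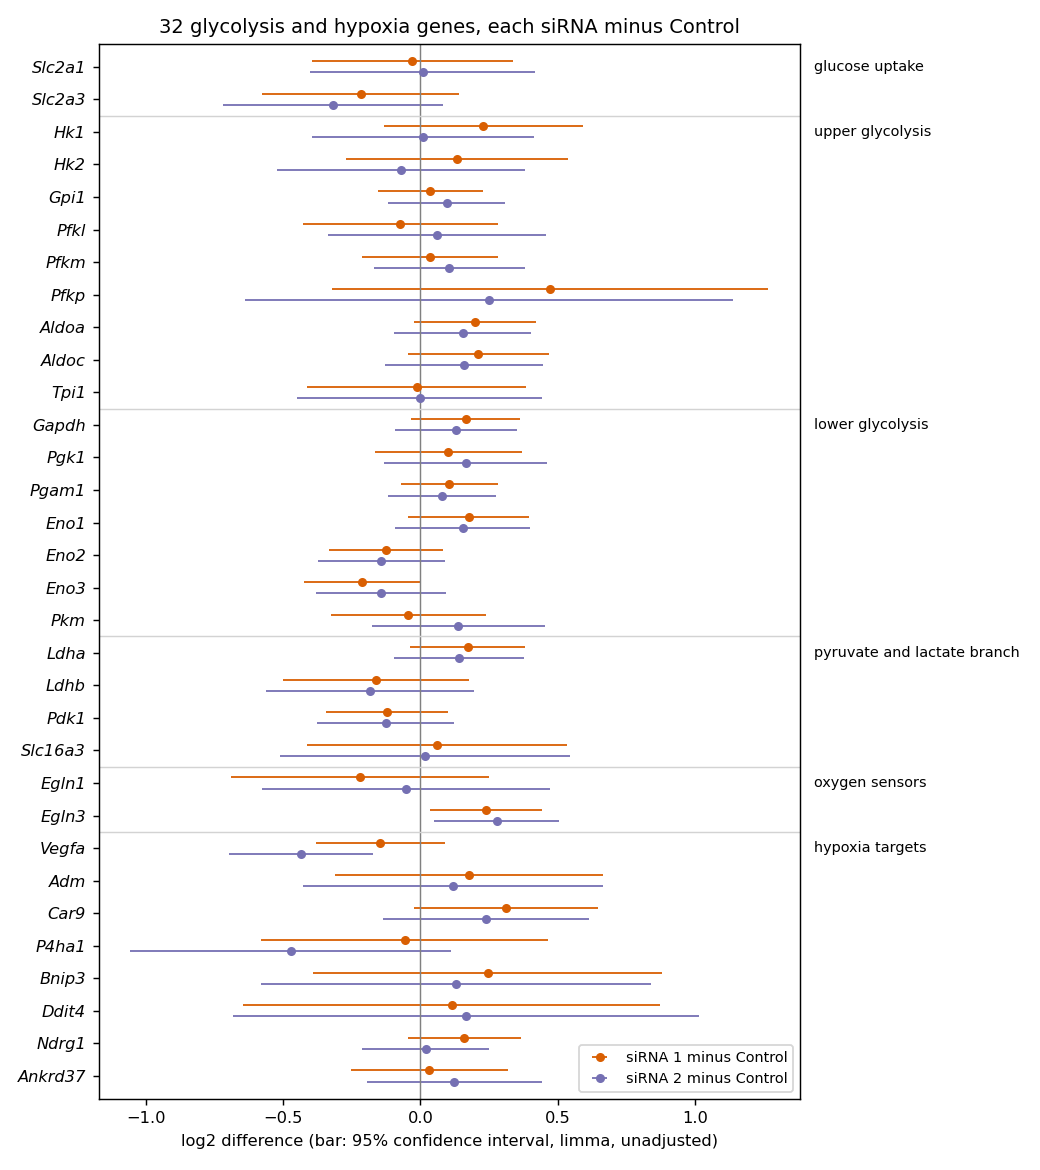
Log2 difference of each member, siRNA 1 minus Control (orange) and siRNA 2 minus Control (purple), with limma's unadjusted 95% confidence intervals, ordered by role. Before adjustment the intervals exclude 0 for Vegfa under siRNA 2, Egln3 under both siRNAs and, narrowly, Eno3 under siRNA 1.

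The 8 members whose 5 siRNA arrays all lay on 1 side of the 3 Control arrays made up 25% of the 32, beside 3.44% of all genes. Egln3, Car9, Aldoa, Pgam1, Eno1 and Ldha were higher (18.8%, beside 2.43% of all genes), and Vegfa and Eno3 were lower (6.25%, beside 1.01%). This count depended on how the values were made, at 3 under quantile normalization (beside 2.86% of all genes), 1 under median scaling (1.84%), 1 under normexp followed by quantile normalization (2.76%), 3 without background correction (2.73%), 4 in the deposited value table (3.23%) and 7 with the mean of all probes of a gene (3.3%). One member is 3.12% of the 32. For siRNA 1 alone 10 members (31.2%) did not overlap Control, beside 7.9% of all genes, and for siRNA 2, with 2 arrays, 11 (34.4%), beside 17%. Between siRNA 2 and siRNA 1, Vegfa and P4ha1 did not overlap (6.25%, beside 19.1% of all genes). In all 6 other ways of making the values, Egln3 alone of the 8 kept its separation. The gap between the nearest siRNA and Control arrays was 0.08 for Egln3 and between 9e-05 and 0.02 for the other 7.

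**Figure D2:**
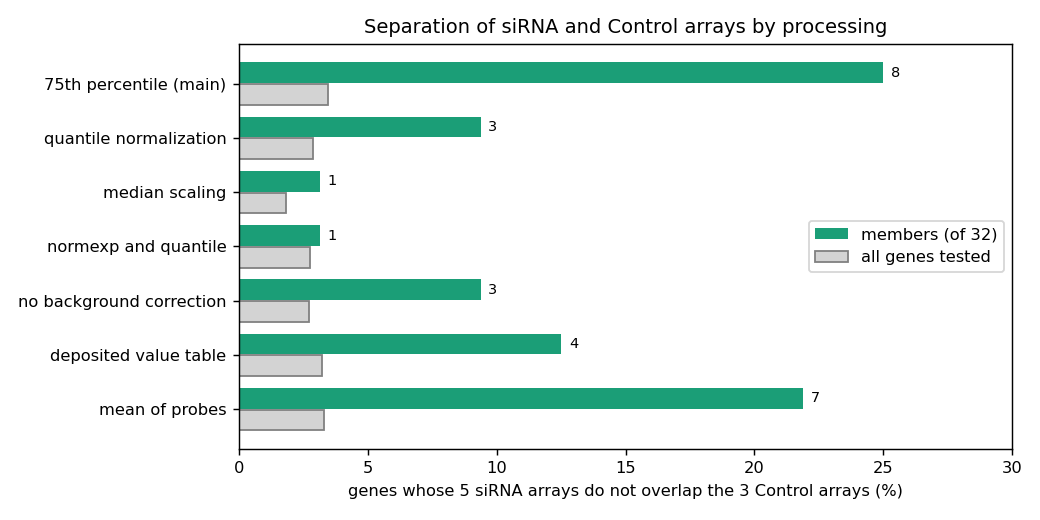
Share of members (green, with the number of members) and of all genes tested (grey) whose 5 siRNA arrays do not overlap the 3 Control arrays, for each way of making the values. The members' share is 25% in the main processing and falls to 1 member under median scaling and under normexp followed by quantile normalization.

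Egln3, a prolyl hydroxylase that marks HIF for degradation, had log2 signals of -0.22, -0.38 and -0.36 in siRNA 1, -0.26 and -0.31 in siRNA 2, and -0.63, -0.47 and -0.58 in Control. The siRNA arrays were all above the Control arrays. The difference was 0.26 ± 0.08 (SE) over both siRNAs, 0.24 for siRNA 1 and 0.28 for siRNA 2, with limma's adjusted p of 0.9999 in the first. Its second probe, with values of -1.01 to -1.15 in siRNA 1, -1.14 and -1.04 in siRNA 2 and -1.26 to -1.34 in Control, also did not overlap and differed by 0.21. Within slides the siRNA arrays stood above Control by 0.42 and 0.38 on slide 1, by 0.11 on slide 2 and by 0.19 and 0.27 on slide 3. Egln1, the main oxygen sensor of the family, overlapped between groups and differed by -0.14 ± 0.18 (SE).

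Vegfa, a growth factor for blood vessels, had log2 signals of -2.18, -2.16 and -2.25 in siRNA 1, -2.56 and -2.41 in siRNA 2, and -2.14, -2.14 and -1.88 in Control. All siRNA arrays were below the Control arrays, and the siRNA 2 arrays lay below those of siRNA 1. The difference was -0.29 ± 0.09 (SE) over both siRNAs, -0.44 ± 0.11 for siRNA 2 and -0.15 ± 0.10 for siRNA 1, and siRNA 2 minus siRNA 1 was -0.29 ± 0.11. Limma's adjusted p was 0.9999 over both siRNAs and 0.9998 for siRNA 2. The second probe gave -0.31. In a bulk sample, fewer cells of a type and less RNA per cell cannot be told apart, and the summed signal of 12 primitive and visceral endoderm markers was 5.69 to 9.50 in siRNA 1, 3.52 to 3.59 in siRNA 2 and 5.34 to 11.0 in Control (multiples of the 75th percentile). Bright markers weigh most in such a sum. The mean log2 signal of the 12 was -2.20 to -1.36 in siRNA 1, -3.15 to -3.13 in siRNA 2 and -2.27 to -1.48 in Control. Of these markers, Afp and Apoa1 were not well above background on every array. The part of the 12 markers in the Vegfa values was not tested. Vegfa separated in 2 of the 6 other ways of making the values.

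Car9, a cell-surface carbonic anhydrase induced by HIF, had log2 signals of -4.16, -4.35 and -4.49 in siRNA 1, -4.35 and -4.47 in siRNA 2, and -4.91, -4.53 and -4.50 in Control. Control replicate 1 lay below the other 7 arrays, which ran from -4.53 to -4.16. The difference of 0.28 ± 0.13 (SE) was 0.14 without Control replicate 1. P4ha1, a collagen prolyl hydroxylase, had -3.25, -3.18 and -3.69 in siRNA 1, -3.87 and -3.71 in siRNA 2, and -3.73, -3.28 and -2.95 in Control. Its siRNA 2 arrays lay below all siRNA 1 arrays but overlapped Control, with a difference of -0.47 ± 0.25 (SE) for siRNA 2 against Control. Its dimmer probe was well above background on 3 arrays only.

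The other hypoxia targets overlapped between groups. Bnip3, a mitophagy receptor, ranged over 0.97 across the arrays, and its 3 probes were lowest in Control replicate 2 or siRNA 1 replicate 1. Ndrg1, a stress-response gene, differed by 0.09 ± 0.08 (SE) for the mean of both siRNAs and by -0.14 ± 0.10 for siRNA 2 against siRNA 1. Its log2 signals were -1.39, -1.42 and -1.62 in siRNA 1, -1.65 and -1.58 in siRNA 2 and -1.65, -1.66 and -1.60 in Control. Ankrd37, an ankyrin-repeat gene, differed by 0.08 ± 0.11 (SE).

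**Figure D3:**
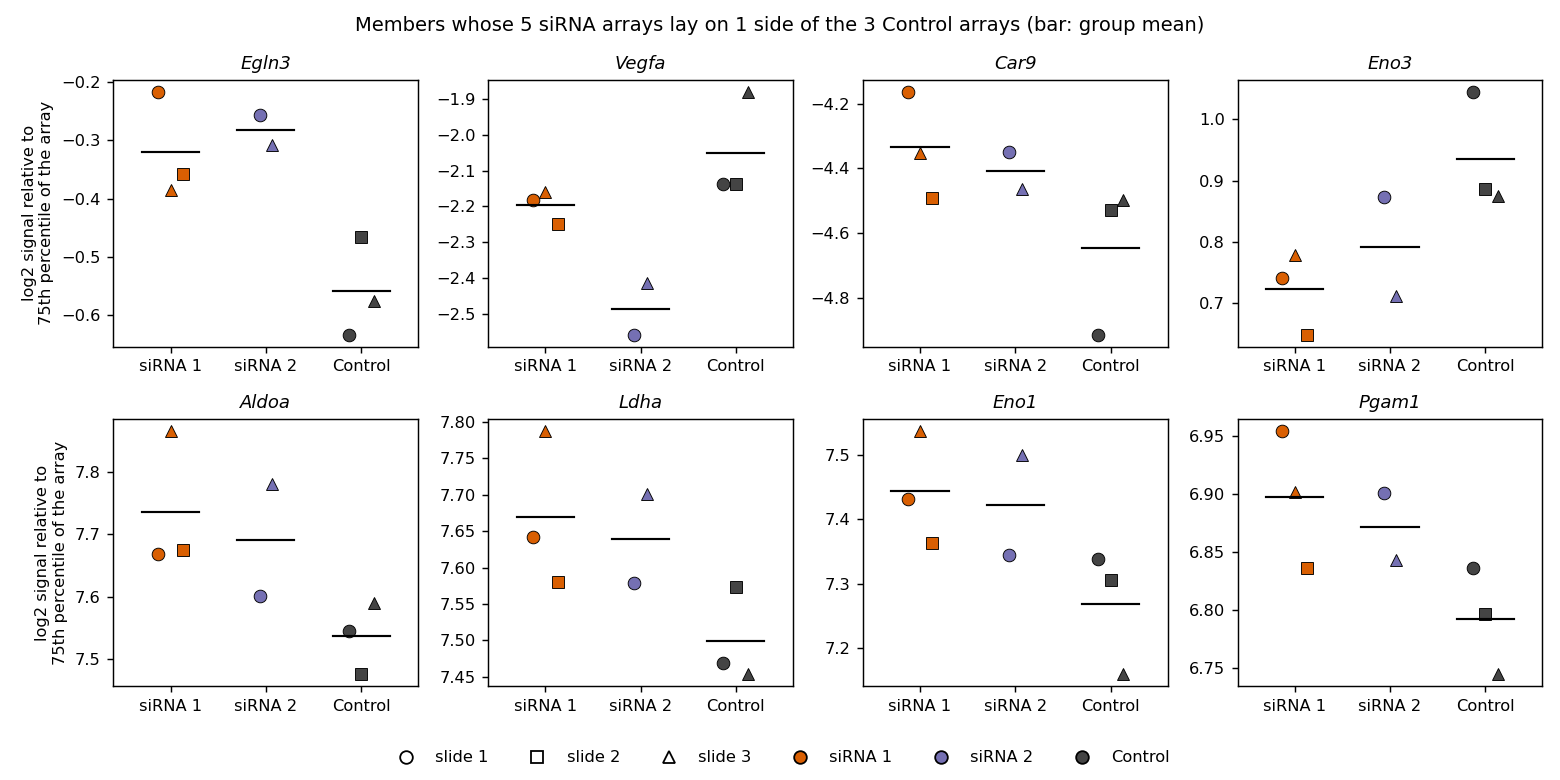
Log2 signal relative to the 75th percentile of the array for the 8 members whose siRNA and Control arrays do not overlap; each point is 1 array, its shape the slide, and the bar is the group mean. The Egln3 points of the siRNAs sit between -0.38 and -0.22 and those of Control between -0.63 and -0.47, while Car9 in Control holds 1 low array.

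In the lower steps of glycolysis, 5 of 7 enzymes stood above 0, with differences from -0.18 to 0.16. Eno1, the widely expressed enolase, had 7.43, 7.54 and 7.36 in siRNA 1, 7.35 and 7.50 in siRNA 2, and 7.34, 7.31 and 7.16 in Control. It differed by 0.16 ± 0.08 (SE), with siRNA and Control separated by less than 0.01. Eno3, the muscle enolase, had 0.74, 0.78 and 0.65 in siRNA 1, 0.87 and 0.71 in siRNA 2 and 1.05, 0.89 and 0.88 in Control, and differed by -0.18 ± 0.08 (SE), or by -0.12 without Control replicate 1. The summed signal of 6 cardiac and skeletal muscle markers was 4.0 to 4.29 in siRNA 1, 4.58 to 4.91 in siRNA 2 and 3.42 to 10.8 in Control (multiples of the 75th percentile), with Tnnt2 not well above background on every array. Control replicate 1 held the highest sum and the highest Eno3 value. The lowest Control sum, 3.42, lay below all siRNA sums, while Eno3 on every Control array lay above all siRNA arrays. By mean log2 signal of the markers, the lowest Control array, at -3.19, lay within the siRNA 1 range of -3.36 to -2.94. The part of these markers in the Eno3 values was not tested. Eno2, the neuronal enolase, differed by -0.13 ± 0.08 and overlapped between groups. Pgam1, phosphoglycerate mutase, had 6.95, 6.90 and 6.84 in siRNA 1, 6.90 and 6.84 in siRNA 2 and 6.84, 6.80 and 6.74 in Control. Its difference of 0.09 was 0.0013 under quantile normalization and turned to -0.04 under normexp followed by quantile normalization. Gapdh was read by 7 probes, whose differences ran from -0.00 to 0.15, and its arrays overlapped on every probe. Pkm, the pyruvate kinase of embryonic cells, differed by 0.05 ± 0.11 (SE).

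Pgk1, phosphoglycerate kinase, had 6.40, 6.20 and 6.22 in siRNA 1, 6.34 and 6.33 in siRNA 2 and 6.38, 6.04 and 6.10 in Control. Its highest values lay on slide 1.

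In the upper steps, 7 of 9 enzymes stood above 0. Aldoa, a widely expressed aldolase, had 7.67, 7.87 and 7.67 in siRNA 1, 7.60 and 7.78 in siRNA 2 and 7.55, 7.48 and 7.59 in Control, with a difference of 0.18 ± 0.08 (SE). All siRNA arrays lay above Control, with a gap of 0.01. Aldoc differed by 0.19 ± 0.10 and overlapped. Pfkp, a phosphofructokinase, had the widest range of any member on the probes used, 1.49, with 0.77 in siRNA 1 replicate 1 against -0.72 in Control replicate 1. Its siRNA 1 minus Control difference was 1.49 on slide 1, -0.51 on slide 2 and 0.43 on slide 3. The dimmer probe of Pfkp, well above background on all 8 arrays, did not show this swing. It had -3.87 in siRNA 1 replicate 1 and -4.02 in Control replicate 1, and ran from -4.21 to -3.66. Hk1, Hk2, Pfkl, Pfkm, Gpi1 and Tpi1 differed by -0.01 to 0.12. Eno1, Gapdh, Pgk1, Aldoa, Ldha and Tpi1 have near-identical copies elsewhere in the genome, which the probes could read, and this was not tested.

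Among the glucose transporters, Slc2a1 differed by -0.01 ± 0.14 (SE) and Slc2a3 by -0.27 ± 0.14 (SE). In the pyruvate and lactate branch, Ldha, which makes lactate, had 7.64, 7.79 and 7.58 in siRNA 1, 7.58 and 7.70 in siRNA 2 and 7.47, 7.57 and 7.45 in Control. The difference was 0.16 ± 0.08 (SE) on that probe, and 0.02 and -0.05 on the other 2 probes, which overlapped. Ldhb, the lactate dehydrogenase of oxidative tissue, differed by -0.17 ± 0.13, Pdk1, which holds back pyruvate entry into mitochondria, by -0.12 ± 0.09, and Slc16a3, a lactate exporter, by 0.04 ± 0.18.

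**Figure D4:**
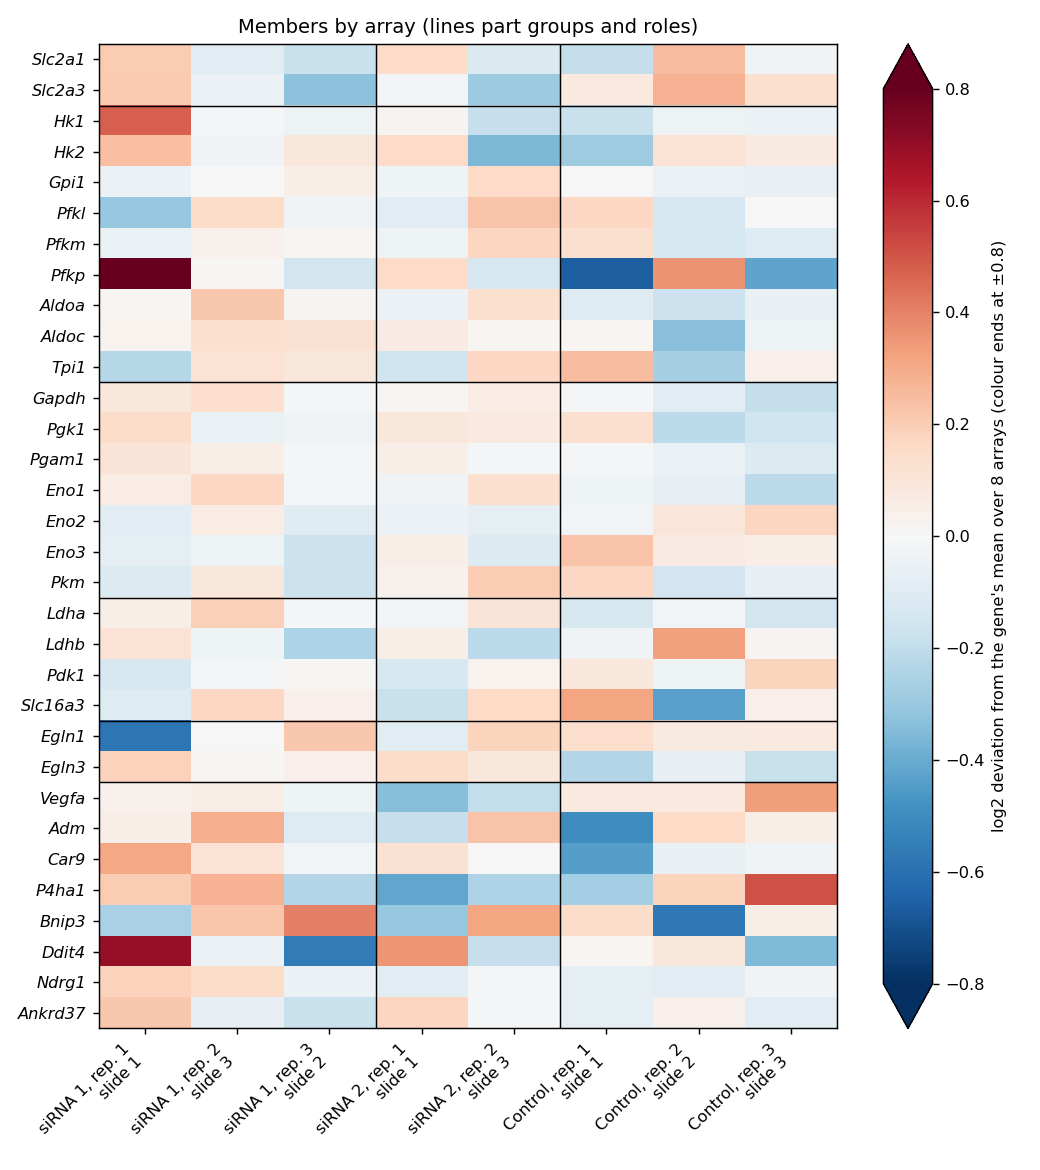
Deviation of each member from its own mean over the 8 arrays, in log2 units, with arrays in columns by group and members in rows by role. The strongest colours are those of Pfkp and Ddit4 in siRNA 1 replicate 1 and of Pfkp in Control replicate 1, and single cells of Egln1 and Bnip3 follow.

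The spread between arrays was of the size of these differences. The within-group SD had a median of 0.15 over the members, beside 0.17 over 22407 genes. Replicate 1 of siRNA 1 was the highest array for 10 members and Control replicate 2 the lowest for 8.

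Slide 1 held replicate 1 of each group and stood apart from the other 2 slides, and each group held the same position on every slide, so position and group cannot be told apart. In a fit that kept the groups, 1331 of 22423 genes (5.94%) differed between slide 1 and the others, and 0 of the 32 members did. At an unadjusted p under 0.05 there were 2 members (6.25%), beside 15.5% of all genes. Ddit4, an mTOR inhibitor induced by stress, had 5.19, 4.85 and 4.51 on slide 1 (siRNA 1, siRNA 2 and Control), against 4.45, 3.93, 4.31, 4.58 and 4.14 on slides 2 and 3, in the order siRNA 1 replicates 2 and 3, siRNA 2 replicate 2 and Control replicates 2 and 3. It stood higher by 0.56 ± 0.21 (SE), with limma's adjusted p of 0.248, and Control replicate 1 lay within the other slides' range. Adm, a vasoactive peptide, stood at -0.34 ± 0.14 and Pgk1 at 0.18 ± 0.08, with adjusted p of 0.318 and 0.350. Adm had -3.40, -3.64 and -3.95 on slide 1 (siRNA 1, siRNA 2 and Control) and between -3.56 and -3.17 on the others. Pgk1 alone of the members did not overlap between slide 1 and the rest (3.12%, beside 13.5% of all genes).

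Other genes of these pathways were described by lists that hold none of the 32 members. Of 36 other glycolysis genes tested, 24 stood above 0 for the mean of both siRNAs (median 0.03), of 18 oxygen-sensing and HIF factors 12 did (median 0.05), and of 51 other hypoxia targets 24 did (median -0.01). None was called. Ldhc, the lactate dehydrogenase of the testis, had -2.18, -2.04 and -2.11 in siRNA 1, -2.19 and -2.31 in siRNA 2 and -2.71, -2.60 and -2.76 in Control. Every siRNA array stood above every Control array, with a difference of 0.51 ± 0.08 (SE) and limma's adjusted p of 0.434. Flt1, a receptor for Vegfa, had -0.55, -0.47 and -0.62 in siRNA 1, -0.55 and -0.84 in siRNA 2 and -0.16, -0.32 and -0.20 in Control, and differed by -0.39 ± 0.09 with an adjusted p of 0.964. Hif1a and Epas1, which each encode a HIF alpha subunit, differed by 0.13 ± 0.08 and 0.15 ± 0.09. Hkdc1, a hexokinase-like gene, stood at -1.55 ± 0.49 for siRNA 2 against Control, where both siRNA 2 arrays lay below every Control array. Ldhd, a D-lactate dehydrogenase, stood at 0.46 ± 0.14 over both siRNAs and did not overlap Control. Gpr146, an orphan receptor, stood at -0.73 ± 0.19 over both siRNAs and -1.25 ± 0.24 for siRNA 2, and Fbp2, a fructose bisphosphatase, at 0.75 ± 0.21 for siRNA 1. The siRNA 2 arrays of Gpr146 all lay below Control, and the siRNA 1 arrays of Fbp2 all lay above it. These genes were picked by smallest p, so such separation is no separate support. Of all genes, 17% did not overlap Control for siRNA 2, 7.9% for siRNA 1 and 3.44% over the 5 siRNA arrays. Gpr146 had -6.54 and -6.94 in siRNA 2, near Mixl1 at -6.92 and -6.67, a mesoderm marker not well above background on every array. Crebbp (0.27) and Rora (-0.19) were also among the smallest p for siRNA 1, Cited2 (0.26) and Arnt (0.20) for siRNA 2, and Pgm2 (-0.21), Hif1an (0.13) and Stc2 (-0.32) for siRNA 2 minus siRNA 1.

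By slide, limma called genes of these lists in both directions. Ppp1r3c, a glycogen targeting subunit, was higher on slide 1 by 0.59 ± 0.09 (SE, adjusted p = 0.0126). Hk3, a hexokinase of white blood cells, was lower, at -1.21 (0.00352), as were Pklr, the pyruvate kinase of liver, at -0.67 (0.00959) and Bhlhe41, a transcriptional repressor, at -0.95 (0.0319). Cul2 and Arnt, the smallest p among the HIF factors, stood at 0.18 and 0.17 and were not called.

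**Figure D5:**
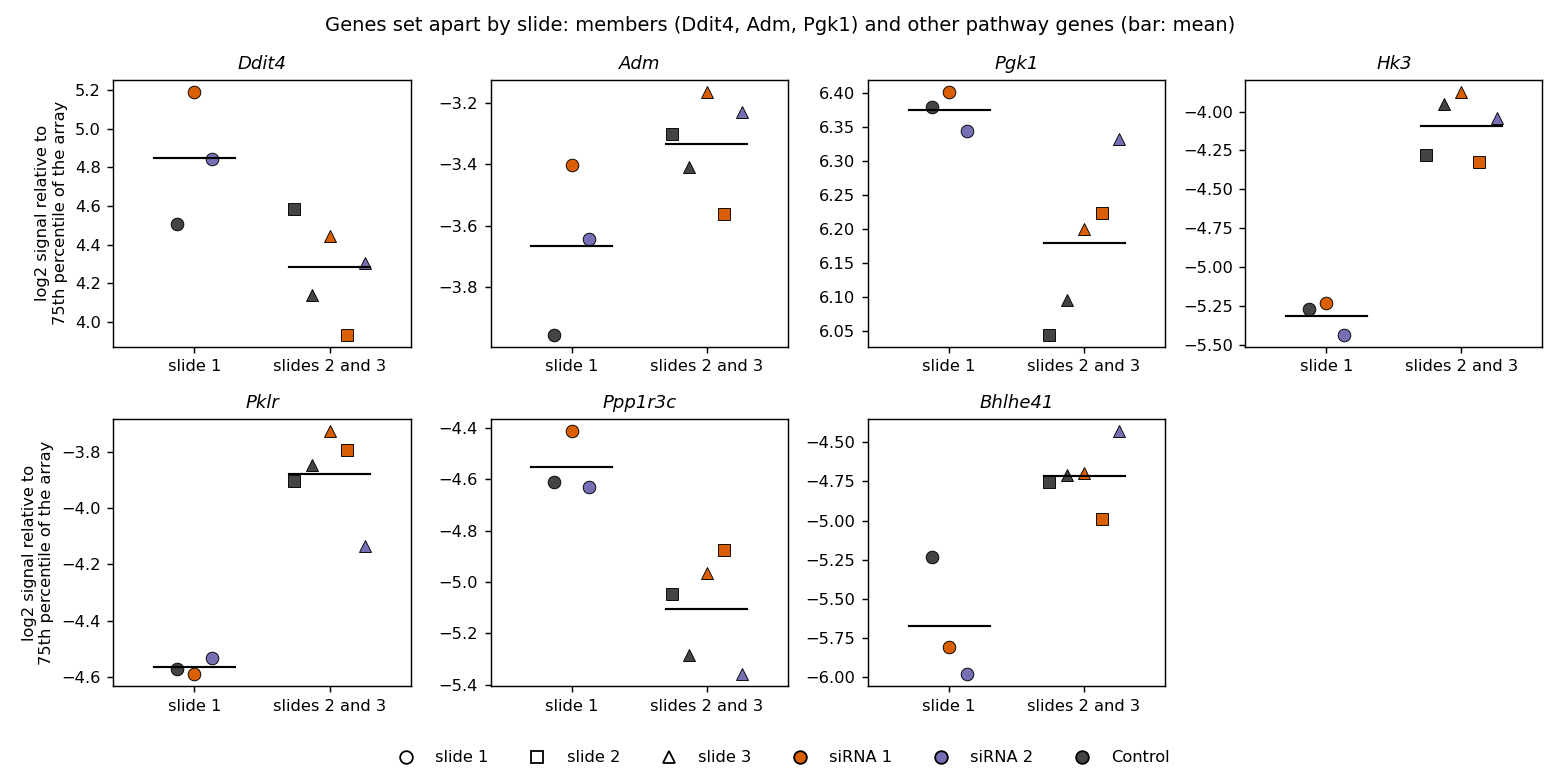
Log2 signal relative to the 75th percentile of the array, slide 1 against slides 2 and 3, for 3 members (Ddit4, Adm, Pgk1) and 4 other pathway genes called by slide; each point is 1 array, coloured by group. The 3 slide 1 arrays of Hk3, Pklr and Ppp1r3c lie clear of the others, whereas Ddit4 and Adm overlap.

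The target and the cell types were checked once. Ppp3cb had 1 probe, which is not known to read the CnAβ1 variant, and differed by -0.17 ± 0.12 (SE) for the mean of both siRNAs. The 10 pluripotency markers were well above background on every array, with summed signals of 216 to 257 in siRNA 1, 231 to 239 in siRNA 2 and 200 to 225 in Control. Their mean log2 signals, less weighted to bright markers, were 2.36 to 2.75, 2.28 to 2.44 and 2.05 to 2.46. Mesoderm markers summed to 6.51 to 9.74, 6.69 to 6.94 and 8.82 to 10.3 in the same groups, with Mixl1 and Mesp1 not above background on all arrays. Their mean log2 signals were -2.87 to -1.99 in siRNA 1, -2.82 in siRNA 2 and -2.39 to -1.86 in Control.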

How the data were processed

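Total RNA from 8 samples was measured on 8 Agilent 1-colour arrays on 3 slides. The authors' scanner files hold intensity values per spot, made with Agilent Feature Extraction 10.7.3.1 and background-corrected, per the file headers. A deposited value table holds log2 values, and RMA is named in the submitters' processing notes with no role. Its Control 2 column matched the scanner file of Control 3 and the reverse, so scanner files were preferred.

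Control and outlier spots were dropped, replicate spots of a probe were averaged, and the log2 processed signal was scaled to the array's 75th percentile (838 to 1031). Per array, 68.0% to 75.1% of 43020 spots exceeded background clearly. Precision is limited by the number of arrays. Accessions were named through a RefSeq table (GRCm38.p6), which matched 26424 of 39429 probes. Probe coordinates (build mm9) are not printed. The probe with the highest mean stood for a gene, where all arrays of 1 or more groups exceeded background (22423 genes). Groups were fitted with limma 3.58.1 (lmFit, eBayes; 5 residual and 2.09 prior degrees of freedom) in R 4.3.3, with Benjamini-Hochberg adjustment. Slide 1 against slides 2 and 3 was fitted with the groups. The fit was run on simulated data with independent noise, no slide effect and planted differences larger than any fitted for a member. That run therefore does not show the power for differences of the size seen here.

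Members and lists were chosen with earlier results of these data known. Values of every array are given for members past the threshold, the 3 with the smallest p per comparison and those whose siRNA and Control arrays do not overlap; for other lists, called genes or, with none, the 2 of lowest p. A gene that this rule takes is not reported here, and counts include it. As the scanner files are labelled, replicate numbers 2 and 3 do not pair Control arrays with siRNA arrays of the same slide. In deviations from group means, same-numbered arrays of siRNA 1 and Control correlated at 0.33, 0.01 and 0.05. Those of siRNA 2 and Control correlated at 0.34 and -0.04, and those of siRNA 2 and siRNA 1, which share a slide, at 0.70 and 0.64. The replicate 1 arrays of Control share slide 1 with those of the siRNAs. With 2 arrays, the siRNA 2 deviations mirror each other, so the correlations of its 2 arrays are not separate evidence. The siRNA and Control arrays of 1 slide correlated at 0.04 to 0.56. Alternatives covered scaling, background, filters, probes, fit, blocks and arrays left out.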

Additional observations from a re-analysis of the deposited data

How the results depend on the processing

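In each siRNA comparison 0 members passed the threshold under any alternative run. The median of the members for the mean of both siRNAs was 0.019 under quantile normalization and 0.039 under normexp followed by quantile normalization, that for siRNA 1 was 0.025 and 0.035, and that for siRNA 2 was 0.021 and 0.024. The siRNA 2 median was also 0.129 under median scaling, 0.042 without background correction, 0.048 and 0.051 with the 2 forms of array weights, 0.052 without Control replicate 2 and 0.028 without siRNA 2 replicate 2, with 1 array left out ranging from 0.028 to 0.120. For siRNA 2 minus siRNA 1, 24 members stood above 0 under median scaling (median 0.050) and 12 in the main processing (median -0.02). With 1 array left out the count ran from 12 to 19 and the median from -0.050 to 0.012, the highest of both without siRNA 1 replicate 2, and the median was 0.013 without the arrays of slide 1. For slide 1 against the others, median scaling put 28 members above 0 (median 0.161, beside 0.115 for all genes), and the median ran from -0.019, without Control replicate 1, to 0.029 with 1 array left out. Pgam1 turned to -0.043 under normexp followed by quantile normalization.

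Array weights were run in 2 forms. The planned form, limma's default on the whole table, called 0 genes for the mean of both siRNAs, and by slide 1 member (Ddit4, 0.64, adjusted p = 0.0471; median -0.031). The second form, estimated from genes with a value on every array, was added after the first form's result had been seen to differ from an earlier analysis of these arrays that reported calls. It called 24 genes for the mean of both siRNAs, 0 of them members, and by slide 2 members (Ddit4, 0.64, adjusted p = 0.0391, and Bnip3, -0.52, adjusted p = 0.0482; median -0.029). Calls with array weights depend on this choice.

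The count of 8 members whose siRNA and Control arrays do not overlap (3.44% of all genes) was 3 under quantile normalization (2.86%), 1 under median scaling (1.84%), 1 under normexp followed by quantile normalization (2.76%), 3 without background correction (2.73%) and 4 in the deposited table (3.23%). It was 20 without the arrays of slide 1 (20.9%) and 14 without Control replicate 1 (9.1%), with 1 array left out ranging from 8 to 14 (4.45% to 13.1%). With the replicate block the mean difference of Egln3 was 0.25 and that of Vegfa -0.28, and no call changed. That block used the scanner files' numbers, which put Control 2 and Control 3 with siRNA arrays of another slide. Fits that leave a group with 1 array assume that it varies like the others. Dim probes such as Car9 and P4ha1 are limited by signal over background.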
